A study of Mus musculus with 16 samples.

Results

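Acta1 encodes skeletal muscle α-actin, a contractile actin of the embryonic heart that cardiomyocytes make again under load. The hearts compared here came from mice with transverse aortic constriction (TAC), a narrowing of the aorta that loads the left ventricle with pressure, and were divided by their own Acta1 level. Of 8 TAC arrays, the 4 with a log2 signal of Acta1 above 11.5 (probe set 10582592) were set against the other 4, out of 16 arrays in the study. The high-Acta1 TAC hearts were cKO TAC replicates 1 and 2 and Control TAC replicates 2 and 4. The low-Acta1 TAC hearts were cKO TAC replicates 3 and 4 and Control TAC replicates 1 and 3. Values of single arrays are given in that order throughout.

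The study crossed 2 genotypes with TAC or sham surgery in male C57BL/6 mice, with 4 mice in each of the 4 groups and 1 Affymetrix Mouse Gene 1.0 ST array per mouse. Mice were 8 to 10 weeks old at surgery, and heart RNA was taken 4 weeks later. In cKO mice Zbtb17, which encodes the zinc finger protein Miz1, was conditionally knocked out. Control mice were set beside them. The promoter that drove the Cre, the deleted part of the gene, the chambers sampled and the pressure gradient reached by TAC are not given in the sources used here. The 8 sham arrays, 4 cKO and 4 Control, serve as background.

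Pressure overload makes cardiomyocytes grow and switch on genes of the fetal heart, among them those of the natriuretic peptides, β-myosin and skeletal α-actin. Fibroblasts and macrophages add matrix and inflammatory transcripts, and genes of fatty acid oxidation tend to be turned down in hypertrophied hearts. Hearts with the same operation can differ widely in how far they go along this path.

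Acta1 stood at 12.65, 12.57, 11.60 and 11.90 on the log2 scale in high-Acta1 TAC arrays, against 10.79, 10.75, 9.31 and 9.88 in low-Acta1 TAC arrays. The sides were chosen by these measured values, which are therefore described without a test. The array just inside the threshold was at 11.60 and the array just outside at 10.79. Within each side, both cKO arrays stood above both Control arrays, so the fits below carry a term for genotype, except where its removal is named. Counts of overlap, ranges, and means or sums of a side carry no such term. The sham arrays ranged between 9.83 and 11.55. The sham array at the top of that range, cKO sham replicate 3, also lay above the threshold. All 4 high-Acta1 TAC arrays exceeded every sham array.

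The 16 arrays were alike in overall distribution, with medians between 4.85 and 4.97 and Spearman correlations between arrays of 0.972 to 0.987. Heart muscle markers were high on every TAC array, with Myh6 (α-myosin heavy chain) at 12.88 to 13.39 and Tnni3 (cardiac troponin I) at 13.37 to 13.63. The probe set of Zbtb17 was at 6.47, 6.49, 6.52 and 6.52 in cKO TAC arrays and at 6.44, 6.30, 6.49 and 6.56 in Control TAC arrays. In cKO sham arrays it was at 6.47 to 6.62, against 6.19 to 6.50 in Control sham arrays. It was therefore not lower in arrays labelled cKO, and since the deleted part is not given, it does not check the genotype labels. Between the sides, Zbtb17 averaged 6.43 ± 0.09 in high-Acta1 TAC arrays and 6.52 ± 0.03 in low-Acta1 TAC arrays (SD, n = 4 each).

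The upstream windows of Acta1 and of 4 genes that were higher in every high-Acta1 TAC array than in every low-Acta1 TAC array are printed because each holds an M-CAT element (GGAATG, on either strand), a short motif long studied in muscle promoters as a binding site of TEAD factors. Each is the run of 250 bases before the start of the gene, 5′ to 3′ on the strand of the gene, from RefSeq on GRCm38.p6, with motif letters in capitals. Acta1 lies on the minus strand at chr8:123894776-123895025, Nppb on the plus strand at chr4:147985650-147985899, Ankrd1 on the minus strand at chr19:36119845-36120094, Mybpc2 on the minus strand at chr7:44524670-44524919 and Ccn1 on the minus strand at chr3:145649986-145650235.
Acta1: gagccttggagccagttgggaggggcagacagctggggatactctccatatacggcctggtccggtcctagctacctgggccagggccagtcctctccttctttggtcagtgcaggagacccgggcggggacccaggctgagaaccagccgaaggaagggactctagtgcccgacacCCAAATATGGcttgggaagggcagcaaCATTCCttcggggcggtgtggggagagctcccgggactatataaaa
Nppb: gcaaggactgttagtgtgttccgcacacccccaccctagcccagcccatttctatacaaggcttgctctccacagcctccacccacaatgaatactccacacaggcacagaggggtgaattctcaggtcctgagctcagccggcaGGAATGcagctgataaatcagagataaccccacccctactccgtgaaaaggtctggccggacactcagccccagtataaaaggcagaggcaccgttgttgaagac
Ankrd1: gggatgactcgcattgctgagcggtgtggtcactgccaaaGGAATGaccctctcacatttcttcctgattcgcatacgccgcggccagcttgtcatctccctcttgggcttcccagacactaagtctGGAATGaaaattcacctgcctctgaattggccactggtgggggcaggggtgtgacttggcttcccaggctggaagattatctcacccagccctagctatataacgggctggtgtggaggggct
Mybpc2: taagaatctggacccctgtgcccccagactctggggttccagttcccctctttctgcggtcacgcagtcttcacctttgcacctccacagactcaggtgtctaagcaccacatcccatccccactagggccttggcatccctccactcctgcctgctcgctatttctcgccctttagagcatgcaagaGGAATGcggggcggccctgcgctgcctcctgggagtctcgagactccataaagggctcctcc
Ccn1: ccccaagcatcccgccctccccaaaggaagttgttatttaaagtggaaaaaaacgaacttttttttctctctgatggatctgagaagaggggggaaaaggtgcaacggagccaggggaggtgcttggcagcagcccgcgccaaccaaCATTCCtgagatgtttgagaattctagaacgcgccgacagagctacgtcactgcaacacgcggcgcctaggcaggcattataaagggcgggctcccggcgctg

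The capitals in the Acta1 window mark a CArG box, the site type of serum response factor, followed by an M-CAT element that ends 41 bases before the start of the gene. The Ankrd1 window holds 2 M-CAT elements and the other 3 windows hold 1 each. Of 32851 such windows in the genome, 12.6% hold an M-CAT element and 1.47% a CArG box. Among the fetal and hypertrophy marker genes with a window, 7 of 29 (24.1%) hold an M-CAT element, 4 of 26 matricellular genes (15.4%) and 4 of 29 fatty acid genes (13.8%) do, and the share over all genes is 14.4%. A match in these letters describes the sequence and shows neither binding nor use of the site.

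Of 21332 probe sets tested, none met the threshold of an adjusted p of 0.05 in limma (percent called, 0). Most fetal and hypertrophy marker genes, matricellular genes and macrophage markers had positive differences between high-Acta1 and low-Acta1 TAC hearts, and most fatty acid genes negative ones, as counted below. All gene lists were chosen with earlier results of these data known, so their counts are descriptions. The smallest adjusted p was 0.0787, and 2422 probe sets (11.4%) had an unadjusted p below 0.05. With 1 probe set per gene, the fit was run again on 13669 genes and 12 passed. This changed the number of tests and also the standard errors. The SE went from 0.149 to 0.139 for Cenpf and from 0.056 to 0.065 for Clic5. In 623 probe sets (2.92%) all 4 high-Acta1 TAC arrays lay above all 4 low-Acta1 TAC arrays, and in 499 (2.34%) all lay below. The lists below count 1 probe set per gene. Over all 13669 genes counted in that way, these shares were 3.77% and 2.45%. Of those genes, 1033 were higher and 613 lower at an unadjusted p below 0.05 in limma. The division was made on a level measured in the same arrays, so each test reads which genes go with Acta1 and not the effect of a treatment. Because whole tissue was measured, a lower share of a cell type and less RNA per cell of that type cannot be told apart.

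Both natriuretic peptide genes were higher on average in high-Acta1 TAC arrays, but only Nppb without overlap. Nppb, which encodes B-type natriuretic peptide, was at 11.62, 12.06, 11.30 and 11.97 in high-Acta1 TAC arrays, against 11.12, 10.33, 9.94 and 11.14 in low-Acta1 TAC arrays. All 4 high arrays lay above all 4 low arrays, by 1.10 ± 0.28 on the log2 scale (SE of the fit, adjusted p 0.263 in limma), a ratio of 2.15. Nppa, the atrial natriuretic peptide gene, was at 12.33, 13.27, 12.24 and 12.92 in high-Acta1 TAC arrays, against 12.41, 11.48, 9.86 and 11.50 in low-Acta1 TAC arrays. Its sides overlapped through cKO TAC replicate 3, and the difference was 1.38 ± 0.42 (SE, adjusted p 0.324 in limma). Control TAC replicate 1 held the lowest level of both peptides on any of the 16 arrays, below the sham minimum of 11.17 for Nppa and of 10.56 for Nppb.

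Ankrd1 and Xirp2 had no overlap between the sides. Ankrd1, which encodes a titin-associated ankyrin repeat protein, was at 13, 13.30, 12.87 and 12.97 in high-Acta1 TAC arrays, against 12.76, 12.36, 12.28 and 12.38 in low-Acta1 TAC arrays. Xirp2, which encodes an actin-binding repeat protein of the intercalated disc, was at 11.78, 12.09, 11.52 and 11.20 in high-Acta1 TAC arrays, against 11.13, 10.98, 10.69 and 10.94 in low-Acta1 TAC arrays. The differences were 0.59 ± 0.10 for Ankrd1 and 0.71 ± 0.12 for Xirp2 (SE, adjusted p 0.188 in limma for each).

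Mybpc2, the gene of the fast skeletal muscle isoform of myosin-binding protein C, was among the 10 genes of smallest p. It was at 8.32, 8.30, 8.12 and 7.40 in high-Acta1 TAC arrays, against 7.23, 6.92, 6.46 and 6.69 in low-Acta1 TAC arrays. The difference was 1.21 ± 0.15 (SE), a ratio of 2.31. It did not pass over all probe sets (adjusted p 0.147 in limma) and did with 1 probe set per gene (adjusted p 0.0232), within a range of 0.0232 to 0.736 over the alternatives run. Uck2, a uridine-cytidine kinase gene, was at 9.71, 9.80, 8.95 and 9.23 in high-Acta1 TAC arrays, against 8.45, 8.52, 8.50 and 8.78 in low-Acta1 TAC arrays. Its difference in cKO hearts was 1.27 and in Control hearts 0.45.

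The myosin heavy chain genes had overlapping sides. Myh7, the gene of β-myosin, was at 10.15, 11.06, 11.03 and 9.75 in high-Acta1 TAC arrays, against 10.03, 9.94, 8.84 and 10.68 in low-Acta1 TAC arrays, so the sides overlapped (0.62 ± 0.41, SE, adjusted p 0.618 in limma). Without Control TAC replicate 1 the difference was 0.26. Myh6 averaged 13.06 ± 0.15 in high-Acta1 TAC arrays and 13.26 ± 0.18 in low-Acta1 TAC arrays (SD, n = 4 each). Acta2, smooth muscle α-actin, overlapped as well, at 9.88 to 10.59 in high-Acta1 TAC arrays against 9.72 to 10.83 in low-Acta1 TAC arrays. Fhl1 (0.50 ± 0.18), Rcan1 (0.73 ± 0.23), which encodes a calcineurin inhibitor, and Csrp3 (0.13 ± 0.05), which encodes muscle LIM protein, were higher on average with overlapping sides.

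**Figure D1:**
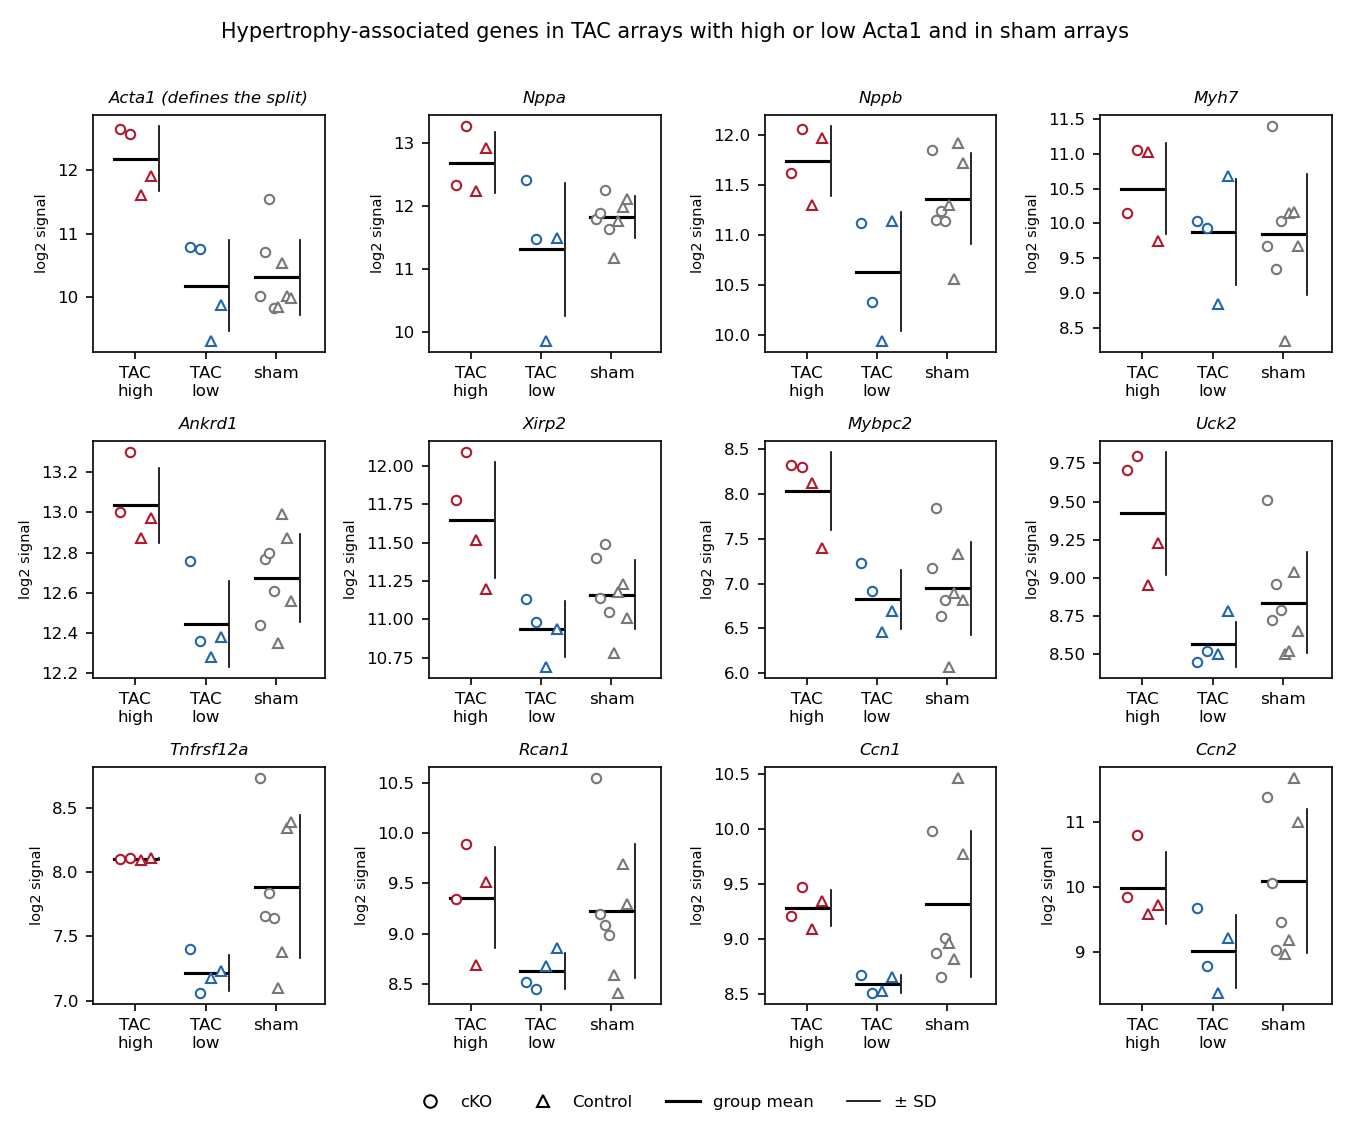
Log2 signal of Acta1 and 11 hypertrophy-associated genes in each array, with high-Acta1 TAC, low-Acta1 TAC and sham arrays from left to right; circles are cKO hearts, triangles Control hearts, the thick bar is the group mean and the thin line ± 1 SD. Tnfrsf12a stands at 8.09 to 8.11 in the 4 high-Acta1 TAC arrays, above 7.06 to 7.40 in the low-Acta1 TAC arrays, while sham arrays spread between 7.10 and 8.73.

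31 of 34 measured fetal and hypertrophy marker genes were higher in high-Acta1 TAC hearts, with a median difference of 0.49, beside 48.8% of all 13669 genes and a median of -0.01 over all probe sets. The list was chosen with earlier results of these data known, so its counts describe it and test nothing. In 9 of the 34 (26.5%) the sides did not overlap, all of them higher, beside 2.92% of all probe sets. Of the 34, 29 were higher in both genotypes, beside 3974 of all 13669 genes. The median difference of the list was 0.60 in cKO hearts and 0.30 in Control hearts. The mean of the list was 9.62 to 10.03 in high-Acta1 TAC arrays, against 9.10 to 9.47 in low-Acta1 TAC arrays and 9.15 to 9.76 in sham arrays. By contrast, the constitutive sarcomere and Z-disc genes were split evenly, 12 higher and 15 lower of 27, with a median of -0.03. Among them Nebl, the gene of nebulette, was lower in every high-Acta1 TAC array, at 9.48 to 9.72 against 9.74 to 10.20 in low-Acta1 TAC arrays (-0.45 ± 0.11, SE, adjusted p 0.253 in limma), and Pdlim5, a Z-disc LIM protein gene, was higher by 0.26 ± 0.07 with overlap.

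The gene of smallest p was Tnfrsf12a, which encodes the receptor of the cytokine TWEAK. It was at 8.10, 8.11, 8.09 and 8.11 in high-Acta1 TAC arrays, against 7.40, 7.06, 7.18 and 7.23 in low-Acta1 TAC arrays. The high arrays nearly coincided, and the difference was 0.89 ± 0.09 (SE), a ratio of 1.85, with an adjusted p of 0.0787 in limma. With 1 probe set per gene its adjusted p was 0.00939, within a range of 0.00939 to 0.736 over the alternatives run, and 4 of 22 alternatives called it. Its sham levels, 7.10 to 8.73, covered both sides. They were highest in cKO sham replicate 1 and Control sham replicates 3 and 4, at 8.73, 8.34 and 8.39.

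Clic5, which encodes a chloride intracellular channel protein, was at 10.91, 11.01, 10.62 and 10.61 in high-Acta1 TAC arrays, against 10.44, 10.50, 10.11 and 10.22 in low-Acta1 TAC arrays (0.47 ± 0.06, SE). The sides were apart in both genotypes, by 0.49 in cKO and 0.45 in Control hearts. Clic5 was named for its small p in a fit with a genotype term. That choice favours like differences in both genotypes, so the likeness is a description. Gnao1, the gene of a G protein α subunit, was at 9.20, 9.33, 8.61 and 8.17 in high-Acta1 TAC arrays, against 8.10, 8.01, 7.68 and 7.70 in low-Acta1 TAC arrays (0.95 ± 0.13, SE). Podxl, the gene of podocalyxin, was at 9.54 to 9.75 in high-Acta1 TAC arrays, against 9.07 to 9.30 in low-Acta1 TAC arrays, with sham arrays at 8.80 to 9.26. Over all probe sets the adjusted p values were 0.136 for Clic5, 0.151 for Gnao1 and 0.188 for Podxl in limma.

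Among the genes of smallest p, 3 were lower in high-Acta1 hearts. Cenpf, which encodes a centromere and microtubule-binding protein, was at 5.08, 5.03, 5.62 and 5.48 in high-Acta1 TAC arrays, against 6.73, 6.24, 6.32 and 6.53 in low-Acta1 TAC arrays. The difference was -1.15 ± 0.15 (SE, adjusted p 0.147 in limma), and the sham arrays, at 6.11 to 6.94, lay with the low side. Rgs2, which encodes a regulator that shortens Gq signalling, was at 6.87, 6.65, 6.55 and 6.57 in high-Acta1 TAC arrays, against 7.43, 7.77, 7.13 and 7.47 in low-Acta1 TAC arrays (-0.79 ± 0.11, SE). Phkg1, the gene of the muscle phosphorylase kinase γ subunit, was at 5.24 to 5.62 in high-Acta1 TAC arrays, against 6.08 to 6.16 in low-Acta1 TAC arrays (-0.69 ± 0.10, SE). Rgs2 and Phkg1 had an adjusted p of 0.151 in limma, and all 3 genes passed with 1 probe set per gene, at 0.0232 for Cenpf and 0.0270 for each of the other two, with ranges of 0.0232 to 0.846 for Cenpf and 0.0270 to 0.846 for the others over the alternatives run.

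The hypertrophic signalling genes as a group were divided, 24 higher and 20 lower of 44, with a median of 0.01. In 4 of them (9.09%) all high-Acta1 TAC arrays were higher, beside 2.92% of all probe sets, and in 3 (6.82%) all were lower, beside 2.34%. Igf1, the gene of insulin-like growth factor 1, was at 7.16, 7.93, 6.77 and 7.01 in high-Acta1 TAC arrays, against 6.51, 6.55, 6.58 and 6.53 in low-Acta1 TAC arrays (0.68 ± 0.19, SE). The oncostatin M receptor gene Osmr was at 7.75 to 8.01 in high-Acta1 TAC arrays, against 7.32 to 7.69 in low-Acta1 TAC arrays. Adra1b, an α1-adrenergic receptor gene, ran the other way, at 6.54 to 6.77 in high-Acta1 TAC arrays against 6.85 to 7.36 in low-Acta1 TAC arrays (-0.40 ± 0.11, SE). The adjusted p in limma was 0.292 for Igf1 and Osmr and 0.278 for Adra1b.

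Of the 21 process lists, the matricellular and matrix protein genes had the largest share of members without overlap. Of 42 matricellular and matrix protein genes measured, out of 45 named, 39 were higher in high-Acta1 TAC hearts and 28 had an unadjusted p below 0.05 in that direction, beside 6.56% of all probe sets. The sides did not overlap in 19 of them (45.2%), all higher, beside 2.92% of all probe sets. The median difference was 0.60, at 0.77 in cKO hearts and 0.38 in Control hearts. In both genotypes 36 of 42 were higher, beside 3974 of all 13669 genes. The mean of the list was 8.08 to 8.83 in high-Acta1 TAC arrays, against 7.56 to 7.77 in low-Acta1 TAC arrays and 7.48 to 8.17 in sham arrays. The highest of these means was that of cKO TAC replicate 2, and without that array the median was 0.43 with 39 of 42 still positive.

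Postn, the gene of periostin, a protein of activated fibroblasts, was at 9.70, 11.58, 9.95 and 9.48 in high-Acta1 TAC arrays, against 8.67, 8.21, 8.60 and 7.70 in low-Acta1 TAC arrays. All high arrays lay above all low arrays and above the sham maximum of 9.18. The difference was 1.88 ± 0.39 (SE, adjusted p 0.227 in limma), a ratio of 3.69. Thbs1, which encodes the TGF-β-activating thrombospondin 1, was at 6.79, 7.95, 7.27 and 7.51 in high-Acta1 TAC arrays, against 5.84, 5.83, 6.48 and 6.22 in low-Acta1 TAC arrays (1.29 ± 0.23, SE). Sham levels of Thbs1 ran across both sides, between 5.44 and 9.12. The highest were in cKO sham replicate 1 and Control sham replicates 3 and 4, at 8.96, 9.11 and 9.12.

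Ccn1, a matricellular gene induced by growth factors and stretch, was at 9.21, 9.47, 9.09 and 9.34 in high-Acta1 TAC arrays, against 8.67, 8.51, 8.53 and 8.65 in low-Acta1 TAC arrays. The spread within each side was small beside the difference of 0.69 ± 0.09 (SE, adjusted p 0.151 in limma, 0.0270 with 1 probe set per gene, range 0.0270 to 0.846 over the alternatives run). Ccn1 was named for its small p, a choice that favours a small spread. Ccn2, connective tissue growth factor, was at 9.84, 10.80, 9.58 and 9.72 in high-Acta1 TAC arrays, against 9.67, 8.77, 8.36 and 9.21 in low-Acta1 TAC arrays, with overlap. For both CCN genes the sham maximum, 10.46 for Ccn1 and 11.68 for Ccn2, exceeded every TAC array. The highest sham levels of both genes were in cKO sham replicate 1 and Control sham replicates 3 and 4. The same arrays had the highest sham levels of the immediate early gene Atf3, at 9.58, 10.18 and 8.45. Atf3 was at 6.13 to 7.26 in the other sham arrays and at 6.15 to 6.79 in TAC arrays. The relation to Atf3 was not tested.

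Mfap5, a microfibril protein gene, was at 8.54, 9.78, 8.32 and 8.64 in high-Acta1 TAC arrays, against 7.63, 7.33, 7.68 and 7.26 in low-Acta1 TAC arrays (1.34 ± 0.27, SE). Vcan, the gene of the proteoglycan versican, was at 7.31, 8.07, 7.07 and 6.83 in high-Acta1 TAC arrays, against 6.26, 6.14, 6.32 and 6.33 in low-Acta1 TAC arrays (1.06 ± 0.21, SE). The adjusted p in limma was 0.219 for each. Genes of activated fibroblasts had differences of like size, with Cilp at 5.95 to 8.11 in high-Acta1 TAC arrays against 4.87 to 5.20 in low-Acta1 TAC arrays, and Thbs4 at 5.73 to 8.26 in high-Acta1 TAC arrays against 5.24 to 5.49 in low-Acta1 TAC arrays. Neither gene had overlapping sides. In sham arrays Cilp was at 4.75 to 5.90 and Thbs4 at 5.15 to 6.81. Both were highest in cKO sham replicate 2 and Control sham replicate 3, the sham arrays highest in the atrial gene Myl7. The relation of these genes to Myl7 was not tested.

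Of 22 collagen genes, 18 were higher in high-Acta1 TAC hearts, with a median difference of 0.31. The sides did not overlap in 7 (31.8%), all higher, beside 2.92% of all probe sets. Col8a1, a short-chain collagen gene, was at 8.54, 9.37, 8.33 and 8.26 in high-Acta1 TAC arrays, against 7.47, 7.23, 7.34 and 6.97 in low-Acta1 TAC arrays. Its difference of 1.37 ± 0.19 (SE, ratio 2.59) had an adjusted p of 0.151 in limma and of 0.0270 with 1 probe set per gene (range 0.0270 to 0.846 over the alternatives run). The fibrillar collagen gene Col1a1 was at 7.61, 8.26, 7.61 and 7.79 in high-Acta1 TAC arrays, against 7.21, 6.93, 7.33 and 7.01 in low-Acta1 TAC arrays. Col3a1 was at 7.15, 8.04, 7.15 and 7.46 in high-Acta1 TAC arrays, against 7.08, 6.85, 7.08 and 6.89 in low-Acta1 TAC arrays. Both fibrillar genes had no overlap, with differences of 0.70 ± 0.16 for Col1a1 and 0.47 ± 0.19 for Col3a1 (SE), the second at 0.27 without cKO TAC replicate 2.

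Genes that process and protect the matrix were mostly higher as well. Of 25 crosslinking and turnover genes measured, out of 35 named, 23 were higher in high-Acta1 TAC hearts, with a median of 0.32 (0.21 without cKO TAC replicate 2). The sides did not overlap in 8 (32.0%), all higher, beside 2.92% of all probe sets. Timp1, an inhibitor of metalloproteinases, was at 6.42, 7.66, 6.35 and 6.34 in high-Acta1 TAC arrays, against 5.26, 4.96, 5.38 and 5.78 in low-Acta1 TAC arrays (1.35 ± 0.31, SE, adjusted p 0.241 in limma). Cleavage of the procollagen C-propeptide is enhanced by the products of Pcolce and Pcolce2. Pcolce was at 8.49 to 9.33 in high-Acta1 TAC arrays, against 7.92 to 8.36 in low-Acta1 TAC arrays. Lox, the lysyl oxidase gene, was at 5.58, 6.80, 4.73 and 5.28 in high-Acta1 TAC arrays, against 4.71, 4.66, 4.60 and 4.73 in low-Acta1 TAC arrays, so that Control TAC replicate 2 was level with the low side. Without cKO TAC replicate 2 the difference of Lox was 0.56, beside 0.92 with it.

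In the TGF-β pathway, 22 of 27 genes were higher in high-Acta1 TAC hearts, with a median of 0.15 (0.26 without Control TAC replicate 1). The sides did not overlap in 5 (18.5%), all higher, beside 2.92% of all probe sets. The ligand gene Tgfb2 was at 7.38, 7.58, 7.04 and 6.48 in high-Acta1 TAC arrays, against 6.52, 6.09, 6.16 and 6.36 in low-Acta1 TAC arrays (0.84 ± 0.18, SE), with overlap through Control TAC replicate 4. The ligand gene Tgfb3 was at 8.16, 9.14, 7.92 and 7.84 in high-Acta1 TAC arrays, against 7.55, 7.27, 7.51 and 7.56 in low-Acta1 TAC arrays. The receptor gene Tgfbr2 was at 8.00 to 8.32 in high-Acta1 TAC arrays, against 7.61 to 7.80 in low-Acta1 TAC arrays (0.41 ± 0.09, SE), and Tgfbi, a matrix gene named for its induction by TGF-β, was at 7.92 to 8.67 in high-Acta1 TAC arrays against 7.42 to 7.87 in low-Acta1 TAC arrays. The adjusted p in limma was 0.237 for Tgfb2, 0.241 for Tgfbr2, 0.266 for Tgfbi and 0.323 for Tgfb3, whose difference was 0.51 without cKO TAC replicate 2 and 0.79 with it.

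**Figure D2:**
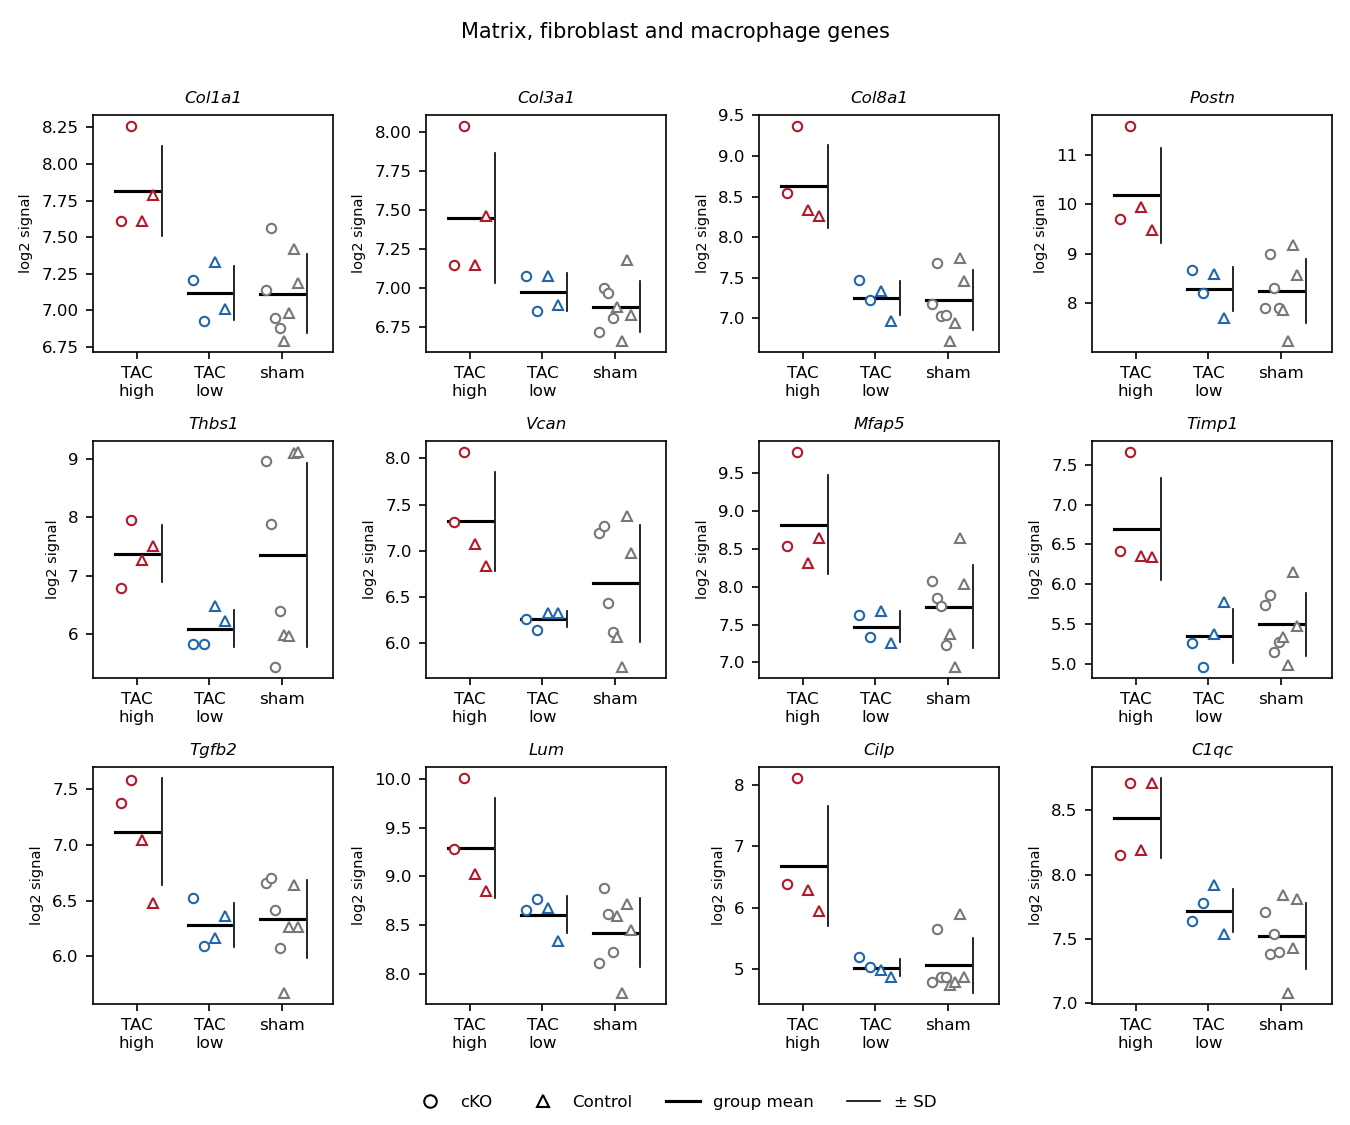
Log2 signal of 12 matrix, fibroblast and macrophage genes in each array, with high-Acta1 TAC, low-Acta1 TAC and sham arrays from left to right; circles are cKO hearts, triangles Control hearts, the thick bar is the group mean and the thin line ± 1 SD. The high-Acta1 TAC arrays lie above the low-Acta1 TAC arrays without overlap in every panel except Tgfb2, and cKO TAC replicate 2 is the highest array on the high side for Postn, at 11.58, and for Timp1, at 7.66.

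Markers of the cells that make and patrol the matrix were higher too. All 22 fibroblast markers and all 21 measured macrophage and monocyte markers had positive differences, with medians of 0.43 and 0.45. The sides did not overlap in 9 (40.9%) and 6 (28.6%), beside 2.92% of all probe sets. Without cKO TAC replicate 2 these medians were 0.25 and 0.30. The fibroblast markers averaged 8.04 to 8.60 in high-Acta1 TAC arrays, against 7.68 to 7.99 in low-Acta1 TAC arrays and 7.46 to 7.99 in sham arrays. Summed on the linear scale, the macrophage markers reached 3579 to 5766 in high-Acta1 TAC arrays, against 3113 to 3451 in low-Acta1 TAC arrays and 2379 to 3992 in sham arrays. The part of these cells in the matrix differences was not tested.

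C1qc, a complement gene of macrophages, was at 8.15, 8.71, 8.19 and 8.71 in high-Acta1 TAC arrays, against 7.64, 7.78, 7.92 and 7.54 in low-Acta1 TAC arrays (0.72 ± 0.16, SE, adjusted p 0.237 in limma). The difference was 0.72 in each genotype, and the choice of C1qc by its p favours such likeness. Mrc1, the mannose receptor gene of resident macrophages, was at 7.79 to 8.36 in high-Acta1 TAC arrays, against 7.55 to 7.65 in low-Acta1 TAC arrays. Among fibroblast genes, Pi16 was at 7.22 to 8.22 in high-Acta1 TAC arrays, against 6.68 to 6.86 in low-Acta1 TAC arrays, and Lum, the gene of lumican, at 8.85 to 10.01 in high-Acta1 TAC arrays against 8.33 to 8.77 in low-Acta1 TAC arrays. In the macrophage means 2 high arrays stood out, cKO TAC replicate 2 at 7.15 and Control TAC replicate 4 at 7.10, while the other two were at 6.58 and 6.70.

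Fatty acid genes were lower where Acta1 was high. Of 35 uptake and oxidation genes measured, 33 had negative differences, 22 with an unadjusted p below 0.05 in that direction beside 4.79% of all probe sets. In 12 (34.3%) the sides did not overlap, all lower, beside 2.34% of all probe sets. The median difference was -0.26, at -0.29 in cKO hearts and -0.23 in Control hearts. The mean of the list was 9.81 to 10.16 in high-Acta1 TAC arrays, against 10.20 to 10.40 in low-Acta1 TAC arrays and 9.99 to 10.24 in sham arrays. The sham arrays thus lay mostly with the high side. For 30 of the 35 genes the mean of the high-Acta1 TAC arrays lay within the sham range, and for 12 the mean of the low-Acta1 TAC arrays exceeded it.

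Acot2, a mitochondrial acyl-CoA thioesterase gene, was at 10.57, 10.28, 10.73 and 10.69 in high-Acta1 TAC arrays, against 10.78, 10.81, 11.17 and 11.22 in low-Acta1 TAC arrays (-0.43 ± 0.07, SE). All 4 low-Acta1 TAC arrays exceeded the sham maximum of 10.66. Ech1, which encodes a dienoyl-CoA isomerase, was at 11.37, 11.01, 11.70 and 11.60 in high-Acta1 TAC arrays, against 11.74, 11.85, 12.24 and 11.95 in low-Acta1 TAC arrays (-0.53 ± 0.10, SE). The adjusted p in limma was 0.198 for Acot2 and 0.201 for Ech1.

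Acaa2, the gene of the mitochondrial thiolase that ends each round of β-oxidation, was at 11.95, 11.62, 12.07 and 12.08 in high-Acta1 TAC arrays, against 12.21, 12.34, 12.35 and 12.42 in low-Acta1 TAC arrays. The difference of -0.40 ± 0.08 (SE) had an adjusted p of 0.219 in limma, and of 0.0423 when all 16 arrays entered the fit (range 0.0423 to 0.857 over the alternatives run). Decr1, the dienoyl-CoA reductase gene, was at 10.09, 9.76, 10.36 and 10.30 in high-Acta1 TAC arrays, against 10.49, 10.64, 10.61 and 10.64 in low-Acta1 TAC arrays (-0.47 ± 0.10, SE). Pdk4, whose kinase holds back pyruvate dehydrogenase when fat is burnt, was at 10.20, 10.28, 10.49 and 10.83 in high-Acta1 TAC arrays, against 10.74, 10.89, 12.02 and 11.18 in low-Acta1 TAC arrays (-0.76 ± 0.17, SE). Control TAC replicate 1, the array of lowest Acta1, had the highest Pdk4, and the sides overlapped through Control TAC replicate 4.

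Mitochondrial genes beyond β-oxidation differed by less. All 19 citric acid cycle genes had negative differences, with a median of -0.17 and no overlap in 4 (21.1%). Of 21 genes of branched-chain amino acid breakdown, 20 were negative, with a median of -0.19 and no overlap in 3 (14.3%). The members without overlap were all lower, beside 2.34% of all probe sets. Without cKO TAC replicate 2 these medians were -0.10 for both lists. Of 53 oxidative phosphorylation genes, 45 were negative, with a median of -0.08, and of -0.036 without cKO TAC replicate 2. The sides did not overlap in 3 (5.66%), all lower, beside 2.34% of all probe sets. Sucla2, a succinyl-CoA ligase subunit gene, was at 11.35, 11.16, 11.21 and 11.36 in high-Acta1 TAC arrays, against 11.50, 11.54, 11.41 and 11.46 in low-Acta1 TAC arrays (-0.21 ± 0.06, SE, adjusted p 0.333 in limma). The complex I gene Ndufv1 was at 11.07 to 11.43 in high-Acta1 TAC arrays, against 11.45 to 11.59 in low-Acta1 TAC arrays. In cKO hearts the median of the citric acid cycle genes was -0.28, and -0.05 in Control hearts, and a difference between genotypes was not tested for lists.

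Of 23 metabolic regulators, 19 had negative differences, with a median of -0.09, and the sides overlapped in all 23. Ppargc1a, which encodes the coactivator of mitochondrial genes PGC-1α, was at 9.97, 9.59, 9.89 and 9.87 in high-Acta1 TAC arrays, against 10.49, 10.24, 9.58 and 10.21 in low-Acta1 TAC arrays, and Control TAC replicate 1 was the lowest of all 8. Ppara, the gene of the nuclear receptor PPARα, was at 7.78 to 8.50 in high-Acta1 TAC arrays, against 8.21 to 8.65 in low-Acta1 TAC arrays. Without cKO TAC replicate 2 the differences were -0.17 for Ppargc1a, beside -0.30 with it, and -0.12 for Ppara, beside -0.28 with it. Glycolysis and glucose genes were divided, 14 higher and 18 lower of 32, with a median of -0.03. Within them Hk2, the gene of hexokinase 2, was at 8.72 to 9.08 in high-Acta1 TAC arrays, against 8.56 to 9.26 in low-Acta1 TAC arrays. Tkt, the transketolase gene of the pentose phosphate pathway, was higher in each high-Acta1 TAC array, at 6.49 to 6.60 against 6.13 to 6.29 in low-Acta1 TAC arrays (0.34 ± 0.07, SE, adjusted p 0.237 in limma). Bdh1, a ketone body dehydrogenase gene, was at 9.93, 9.35, 9.29 and 9.17 in high-Acta1 TAC arrays, against 8.71, 9.27, 8.76 and 8.73 in low-Acta1 TAC arrays (0.57 ± 0.15, SE).

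**Figure D3:**
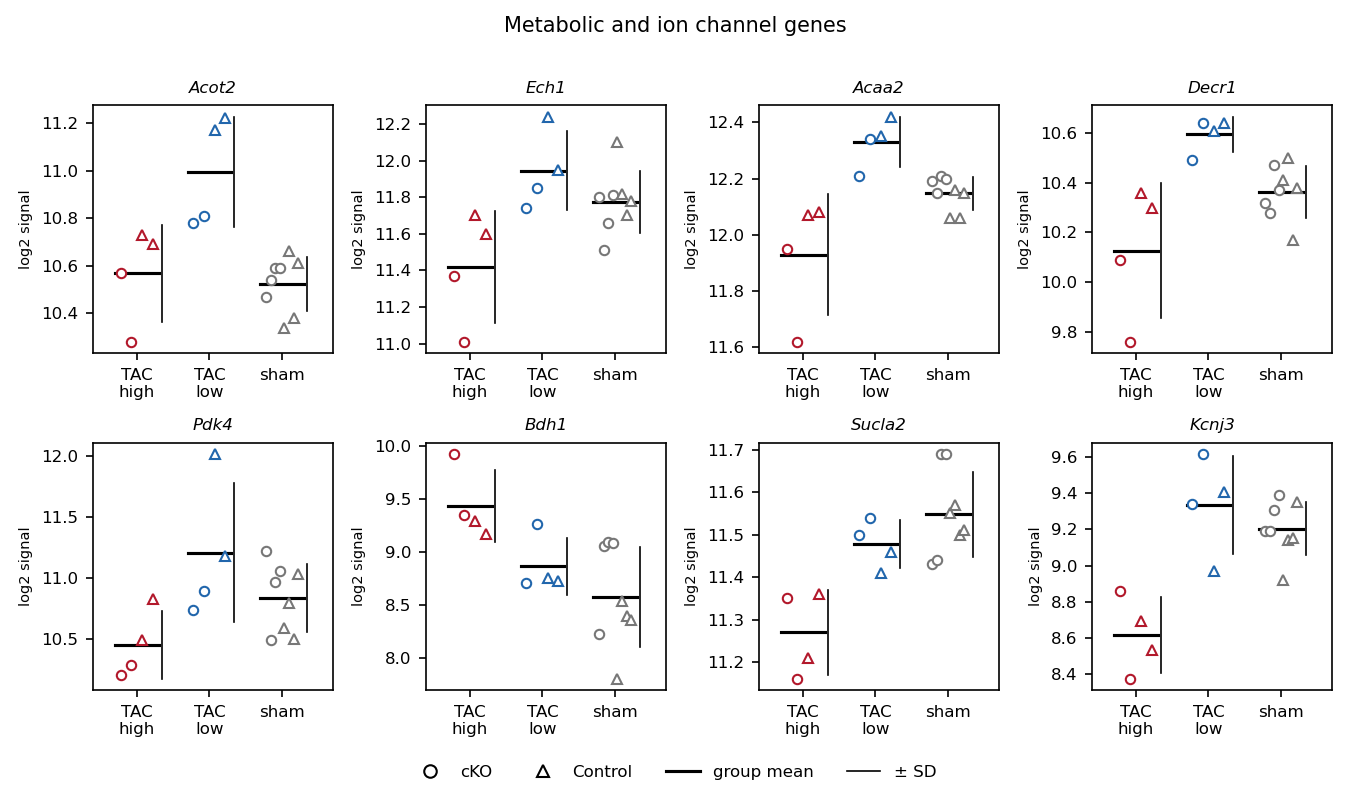
Log2 signal of 7 metabolic genes and of Kcnj3 in each array, with high-Acta1 TAC, low-Acta1 TAC and sham arrays from left to right; circles are cKO hearts, triangles Control hearts, the thick bar is the group mean and the thin line ± 1 SD. High-Acta1 TAC arrays lie below low-Acta1 TAC arrays without overlap for Acot2, Ech1, Acaa2, Decr1, Sucla2 and Kcnj3, with Kcnj3 at 8.37 to 8.86 in high-Acta1 TAC arrays and 8.97 to 9.62 in low-Acta1 TAC arrays.

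Ion channel genes were also mostly lower. Of 22 measured, 18 had negative differences, with a median of -0.18. The sides did not overlap in only 1 of them (4.55%), Kcnj3, which was lower, beside 2.34% of all probe sets. Kcnj3, an inward rectifier potassium channel gene that is strongest in the atria, was at 8.86, 8.37, 8.69 and 8.53 in high-Acta1 TAC arrays, against 9.34, 9.62, 8.97 and 9.41 in low-Acta1 TAC arrays (-0.72 ± 0.15, SE, adjusted p 0.219 in limma). Kcnd2, a channel gene of the transient outward current, was at 7.63, 6.97, 6.98 and 7.41 in high-Acta1 TAC arrays, against 8.27, 7.87, 7.52 and 7.77 in low-Acta1 TAC arrays. Calcium handling genes were divided, 10 higher and 12 lower of 22. Among them Atp2a2, the calcium pump gene SERCA2, was at 13.21 to 13.43 in high-Acta1 TAC arrays, against 13.37 to 13.55 in low-Acta1 TAC arrays.

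**Figure D4:**
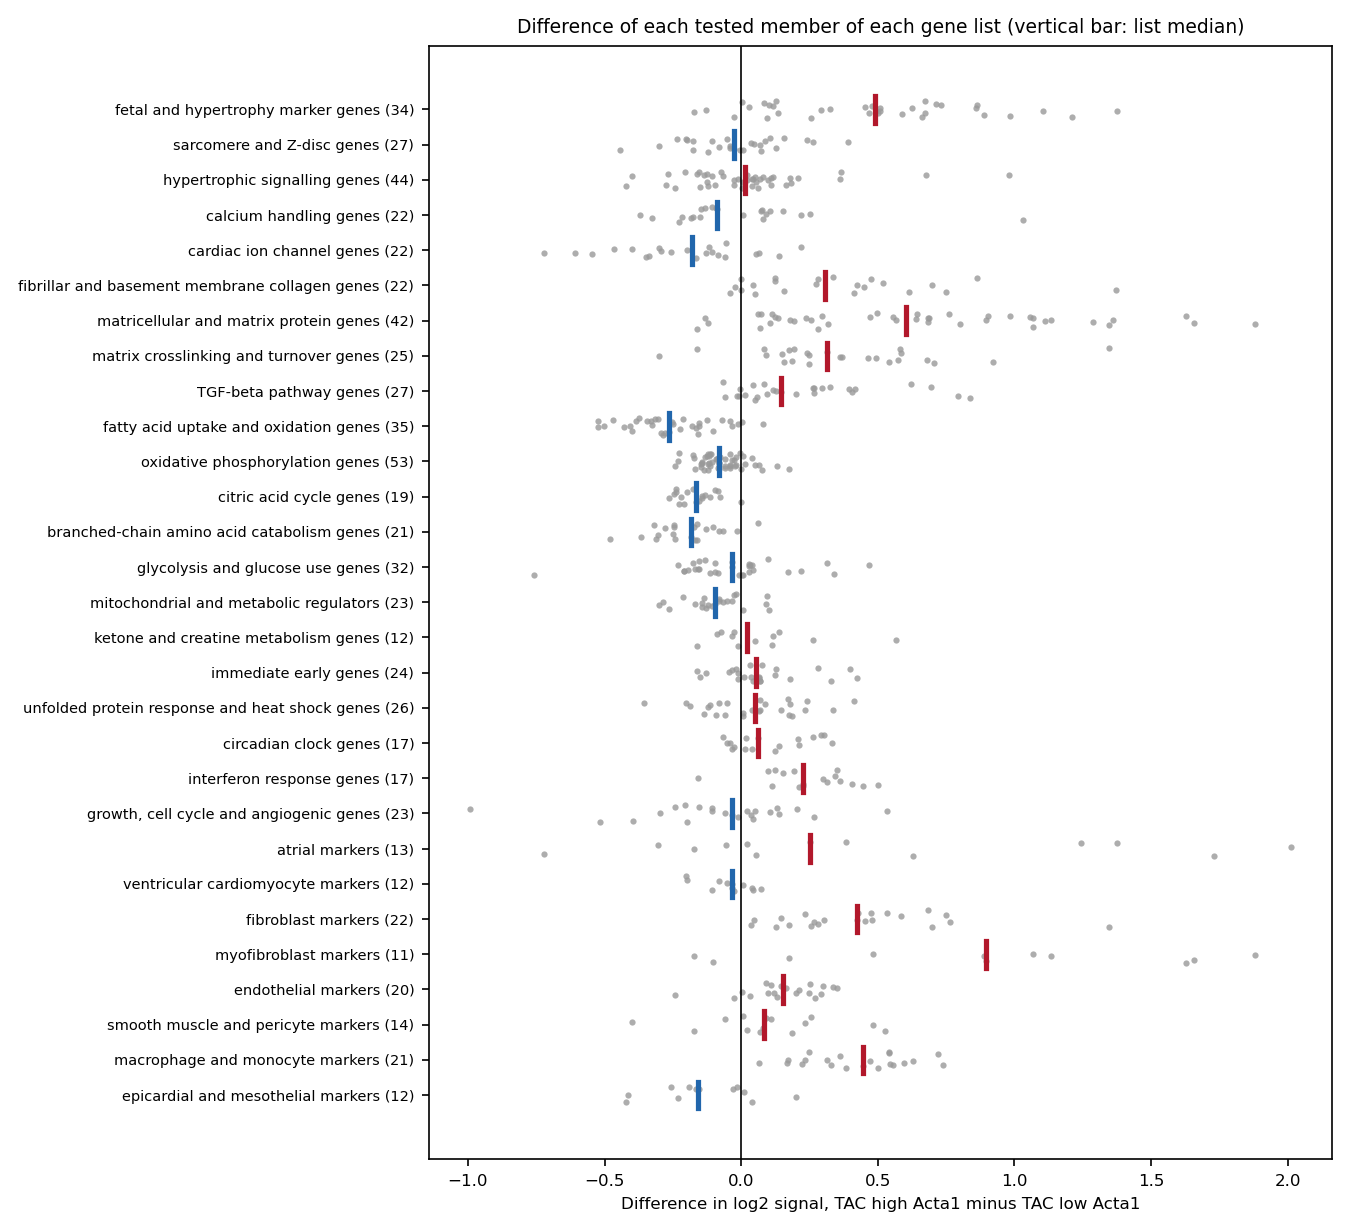
Difference in log2 signal, high-Acta1 TAC minus low-Acta1 TAC, of each tested member (points) of every gene list with at least 10 tested members, with the list median as a vertical bar and the number tested in brackets. Medians lie at 0.60 for matricellular genes, 0.49 for fetal and hypertrophy marker genes and -0.26 for fatty acid genes; the vertical position of points within a row carries no value.

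Some high-Acta1 TAC arrays also carried more atrial transcripts. Myl7, the atrial myosin light chain gene, was at 6.07, 8.83, 7.26 and 4.39 in high-Acta1 TAC arrays, against 4.69, 4.33, 6.07 and 4.54 in low-Acta1 TAC arrays, and its sham levels ran between 4.30 and 8.62. Of 13 atrial markers measured, 9 had positive differences, with a median of 0.25, and of 0.06 without cKO TAC replicate 2. Their summed linear level was 10128 to 19979 in high-Acta1 TAC arrays, against 4931 to 9393 in low-Acta1 TAC arrays and 5446 to 10840 in sham arrays, and this sum includes Nppa. Control TAC replicate 4 had the second lowest Myl7 of the 8 TAC arrays and stood on the high side. That array was above all low-Acta1 TAC arrays for Postn, Col1a1, Timp1, Ankrd1 and Nppb, as follows from sides that do not overlap. For Myh7, at 9.75, and Tgfb2, at 6.48, it lay inside the range of the low-Acta1 TAC arrays.

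Of the 4 TAC arrays with Myl7 below 6, 1 was high-Acta1, and with the genotype term its comparison comes down to Control TAC replicate 4 against Control TAC replicate 3, 1 mouse against 1 mouse with no replicate check. Between these arrays the median differences were 0.47 for the matricellular genes, 0.65 for the macrophage markers, 0.18 for the fetal and hypertrophy marker genes, -0.30 for the fatty acid genes and 0.02 for the oxidative phosphorylation genes. With Myl7 as a further term in the fit of all 8 arrays, the medians were 0.33 for the matricellular genes, 0.42 for the macrophage markers, 0.35 for the fetal and hypertrophy marker genes and -0.16 for the fatty acid genes. Among sham arrays, the 2 with Myl7 above 6 had matricellular means of 8.06 and 8.17, and the other sham arrays had 7.48 to 7.85. The part of atrial tissue in the remaining differences was not tested. Of 7 valve and cartilage-like markers, 5 had positive differences, and the list means overlapped, at 5.49 to 6.76 in high-Acta1 TAC arrays against 5.37 to 5.64 in low-Acta1 TAC arrays. The sides did not overlap in 1 member (14.3%, beside 3.77% of all genes), Prg4, the lubricin gene. Prg4 was at 8.82, 9.65, 8.39 and 7.53 in high-Acta1 TAC arrays, against 6.77, 6.73, 7.32 and 7.03 in low-Acta1 TAC arrays. It was at 8.52 and 8.22 in the 2 sham arrays with Myl7 above 6, and at 6.55 to 7.01 in the other sham arrays.

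Skeletal muscle uses Acta1 as its main actin gene, so its markers were examined as well. The skeletal myosin genes Myh1 and Myh2 and the genes Mylpf and Pvalb were below the detection filter on the mean of all arrays (3.89 to 4.20, filter 4.37). Of the 9 skeletal muscle markers measured, 8 had negative differences, with a median of -0.07. Their summed linear level was 743 to 1666 in high-Acta1 TAC arrays, against 614 to 809 in low-Acta1 TAC arrays and 506 to 1429 in sham arrays. The member with a positive difference was Casq1, a calsequestrin gene, at 9.34, 9.69, 10.39 and 8.72 in high-Acta1 TAC arrays, against 8.12, 8.87, 8.95 and 8.07 in low-Acta1 TAC arrays. Markers of T, B and natural killer cells were near background, with 3 of 15 measured, with a median difference of -0.04.

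The sham arrays were not used by the rule and served for a separate reading. There the slope of each probe set on the Acta1 level was fitted with a term for genotype. Acta1 was at 11.55 in cKO sham replicate 3 and at 9.83 to 10.71 in the other sham arrays. Each slope therefore leans on that array. No probe set passed in limma (percent called, 0), with 554 (2.60%) at an unadjusted p below 0.05 and a smallest adjusted p of 0.658. The median slope was -0.03 per log2 unit of Acta1 for the matricellular genes, with 18 of 42 positive, 0.01 for the fetal and hypertrophy marker genes, with 18 of 34 positive, and 0.01 for the fatty acid genes, with 20 of 35 positive. The median over all probe sets was 0.01.

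The sham array of highest Acta1, cKO sham replicate 3, had a matricellular mean of 7.55 and a fetal and hypertrophy mean of 9.49, both inside the range of the other sham arrays. Among key genes, Ankrd1 had a slope of 0.25 ± 0.12 and Nppa of 0.34 ± 0.17 per log2 unit (SE), and Postn of 0.08 ± 0.41. Tnfrsf12a, the gene of smallest p in TAC hearts, had a slope of -0.22 ± 0.34. The genes of smallest p in sham hearts were Mettl18 (0.48 ± 0.08), Hamp2 (-0.45 ± 0.08) and Nrn1 (1.00 ± 0.21), and in TAC hearts their differences were 0.02, -0.09 and 0.10. A slope that misses the threshold over 8 arrays does not show that the sham hearts lack the relation.

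**Figure D5:**
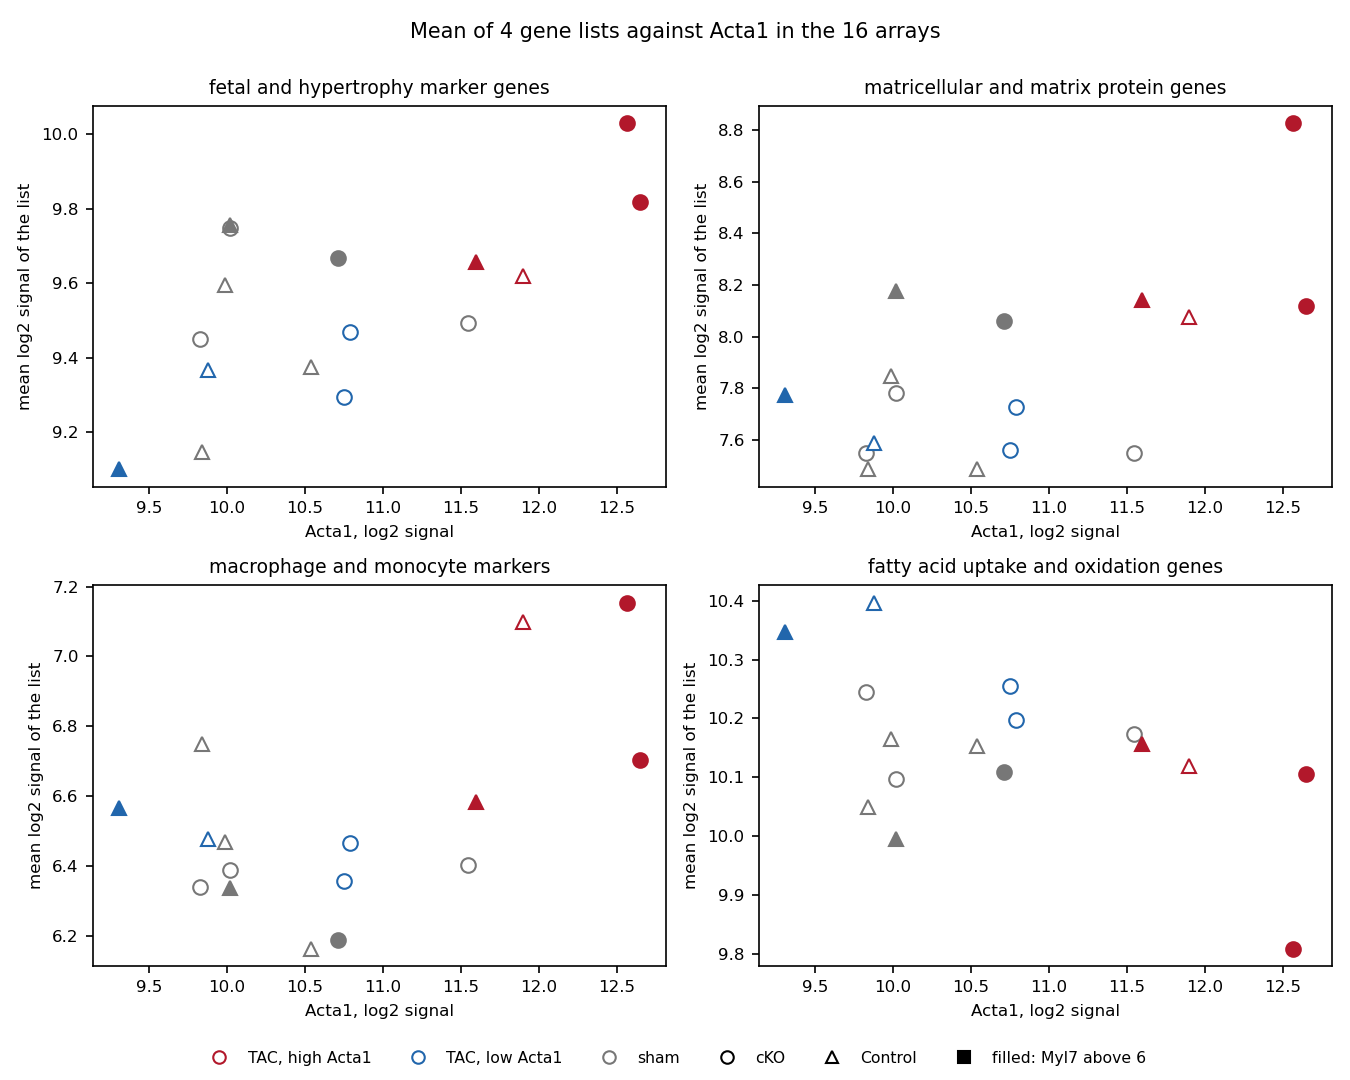
Mean log2 signal of 4 gene lists (vertical) against the log2 signal of Acta1 (horizontal) in the 16 arrays, with high-Acta1 TAC in red, low-Acta1 TAC in blue and sham in grey; circles are cKO, triangles Control, and filled symbols mark arrays with Myl7 above 6. The matricellular mean is 8.08 to 8.83 in high-Acta1 TAC arrays and 7.56 to 7.77 in low-Acta1 TAC arrays, and the sham array at an Acta1 level of 11.55 has a mean of 7.55.

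The difference between high and low Acta1 was compared between genotypes, with 2 arrays per genotype and side. No probe set passed in limma (percent called, 0), with 941 (4.41%) at an unadjusted p below 0.05 and a smallest adjusted p of 0.984. The genes named here were chosen by the p of this difference, so a contrast between genotypes was fixed by the choice. Serpina3n, an acute-phase protease inhibitor gene, was at 8.59, 8.98, 8.27 and 8.27 in high-Acta1 TAC arrays, against 5.88, 6.89, 8.33 and 8.41 in low-Acta1 TAC arrays. Both low-Acta1 Control TAC arrays were thus as high as the high side, and the difference was 2.40 in cKO hearts and -0.10 in Control hearts.

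Id2, an inhibitor of helix-loop-helix transcription factors, differed by 0.84 in cKO hearts and by -0.24 in Control hearts. Abra, a muscle gene of the actin and serum response factor pathway, differed by 1.5 in cKO hearts and by 0.07 in Control hearts. Ephb1, an ephrin receptor gene, differed by -1.0 in cKO hearts and by 0.46 in Control hearts. Apod, the apolipoprotein D gene, differed by 1.93 in cKO hearts and by 0.32 in Control hearts. Each of these genes had an adjusted p of 0.984 or above for the difference between genotypes.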

How the data were processed

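Expression was measured in heart RNA of 16 mice, each on its own Affymetrix array of the Mouse Gene 1.0 ST type. The deposited values were log2 signals from the authors for 35556 probe sets, between 2.34 and 14.35. MAS5 is named in the submitters' processing notes, and other steps of normalization are not given in the sources used here. Array number and brightness limit the precision. Of the probe sets, 21789 had 1 gene symbol in the platform annotation, 1621 had several and 12146 were not listed. Symbols were updated by Entrez identifier for 21698.

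Probe sets with a mean above the 40th percentile (4.37) were kept, and Acta1 was left out of tests. High-Acta1 TAC arrays were compared with low-Acta1 TAC arrays in limma 3.58.1 (R 4.3.3), with a genotype term, a mean-variance trend and Benjamini-Hochberg adjustment over 21332 probe sets. The model left 5 residual degrees of freedom. Further fits took the slope on Acta1 in sham arrays and the difference between genotypes. For each gene the probe set of highest mean signal was used for counts by gene. Figures used Python 3.11.15, pandas 2.3.3 and matplotlib 3.10.9. The fit was tested on simulated data.

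The members and the 36 gene lists were chosen with earlier results of these data known. Named genes were a set of key genes, the 10 genes of smallest p where fewer passed, up to 4 members of smallest p from each list, and 5 genes each for sham arrays and for the difference between genotypes. The p-values measure the spread between mice. Alternatives covered normalization, filter, probe sets per gene, array weights, genotype term, atrial signal, replicate block and leaving out each array. The test with 1 probe set per gene was added after seeing the data.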

Additional observations from a re-analysis of the deposited data

Results flagged for a closer look

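In 314 groups of 4 arrays, over 128 genes, 14 had 1 array far from the other arrays of its group by Dixon's test. Chance alone marks about 1 in 20 groups in this way.

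On the high-Acta1 side, cKO TAC replicate 2 stood apart for Timp1 (7.66, others 6.34 to 6.42), Col1a2 (8.48, others 7.65 to 7.76) and Pcolce2 (9.40, others 8.72 to 8.76). Control TAC replicate 4 was low for Pfkfb3, at 5.33 beside 5.50 to 5.53. On the low-Acta1 side, Control TAC replicate 1 was low for Hk2 (8.56, others 9.19 to 9.26) and Hrc (10.88, others 11.18 to 11.19) and high for Atp2a1 (5.14, others 5.08 to 5.09). Control TAC replicate 3 was high for Suclg2 (9.58, others 9.41 to 9.43) and Pccb (8.56, others 8.31 to 8.34). For Bdh1, cKO TAC replicate 4 was at 9.27 beside 8.71 to 8.76.

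Among sham arrays, Myl7 was at 8.46 in cKO sham replicate 2 (others 4.63 to 5.20) and at 8.62 in Control sham replicate 3 (others 4.30 to 5.02). The array cKO sham replicate 1 was high for Nppb (11.85, others 11.14 to 11.24) and low for Bdh1 (8.23, others 9.06 to 9.10).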

How the results depend on the processing

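The number of probe sets or genes past an adjusted p of 0.05 in limma, 0 as reported for TAC hearts, was 1 with a filter at the 60th percentile, 16 with all 16 arrays in the fit, 11 with the mean of the probe sets of a gene, 2 without a genotype term, 1 with Acta1 as a slope and 12 with 1 probe set per gene. Leaving out 1 array gave 0 to 1, the 1 without cKO TAC replicate 4, and for the difference between genotypes 0 to 2, the 2 without Control TAC replicate 1. The cause was not tested. The other alternatives for TAC hearts and every alternative for sham hearts gave 0. Of 2801 values of 128 named genes over the alternatives, 2787 kept their sign. Without the TAC arrays with Myl7 above 6, the genotype term leaves Control TAC replicate 4 against Control TAC replicate 3, 1 array against 1, which tests nothing. Between these arrays the sign was the other way for Myh7 (-0.93), Myl7 (-0.15), Myh7b (0.07), Fhl1 (-0.15), Chad (-0.27), Id2 (-0.21), Serpina3n (-0.14), Abra (-0.15) and Ephb1 (0.14). It also turned for Hk2 with Myl7 as a term (0.097), for Acta2 without cKO TAC replicate 1 and for Atf3 without Control TAC replicate 4. Over the fits that leave out 1 array, Acta2 ranged between -0.415 and 0.018 and Atf3 between -0.019 and 0.237. With the replicate number as a block, 0 probe sets passed in limma, and the differences of Ppargc1a (0.01) and Hk2 (0.09) turned sign. Same-numbered TAC arrays correlated at -0.05, 0.12, 0.19 and -0.20 for numbers 1 to 4. Numbers 2 and 3 shared a side of the division in both genotypes and numbers 1 and 4 did not. These TAC correlations therefore cannot decide whether the numbers pair the arrays. Same-numbered sham arrays, which the division does not touch, correlated at -0.15, -0.10, -0.19 and -0.09.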

Other observations

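A few growth factor genes of the vessel wall and of muscle had sides that did not overlap. Angpt1, which encodes the vessel-stabilising ligand angiopoietin 1, was at 6.14, 6.36, 6.17 and 6.81 in high-Acta1 TAC arrays, against 7.02, 7.41, 7.15 and 7.87 in low-Acta1 TAC arrays (-0.99 ± 0.19, SE, adjusted p 0.214 in limma). Fgf16, a fibroblast growth factor gene of cardiomyocytes, was at 8.12 to 8.83 in high-Acta1 TAC arrays, against 8.97 to 9.17 in low-Acta1 TAC arrays. Pdgfc, a platelet-derived growth factor gene, was at 5.59 to 6.60 in high-Acta1 TAC arrays, against 5.48 to 5.58 in low-Acta1 TAC arrays. None of these sides overlapped. The list of growth, cell cycle and angiogenic genes was divided, 10 higher and 13 lower of 23, with a median of -0.03. Nox4, the gene of an NADPH oxidase, was at 6.05, 7.0, 5.19 and 4.93 in high-Acta1 TAC arrays, against 4.59, 4.39, 4.37 and 4.10 in low-Acta1 TAC arrays. Nox4 and C4b, a complement gene at 5.79 to 7.45 in high-Acta1 TAC arrays against 5.34 to 5.76 in low-Acta1 TAC arrays, were picked after their values were seen.

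Of 17 interferon response genes, 16 were higher in high-Acta1 TAC hearts, with a median of 0.23 that was 0.08 without Control TAC replicate 4 and 0.40 without Control TAC replicate 2. The sides did not overlap in 1 (5.88%, beside 3.77% of all genes), Irf9, at 6.57 to 7.21 in high-Acta1 TAC arrays against 6.36 to 6.55 in low-Acta1 TAC arrays. Endothelial markers were higher in 18 of 20, with a median of 0.15 (0.26 without Control TAC replicate 1, 0.09 without Control TAC replicate 4), myofibroblast markers in 9 of 11, with a median of 0.90, and smooth muscle and pericyte markers in 11 of 14, with a median of 0.09. Valve and cartilage-like markers were higher in 5 of 7, with a median of 0.56, and ventricular cardiomyocyte markers in 4 of 12, with a median of -0.03. Immediate early genes were higher in 16 of 24 and unfolded protein response and heat shock genes in 16 of 26, each with a median of 0.05. Hspb1, a small heat shock protein gene, was at 9.94 to 10.23 in high-Acta1 TAC arrays, against 9.48 to 9.76 in low-Acta1 TAC arrays. Circadian clock genes were higher in 12 of 17, with a median of 0.06, and ketone and creatine metabolism genes in 6 of 12, with a median of 0.02. Fewer members were measured for neutrophil and mast cell markers (4 of 5 higher), red blood cell markers (0 of 2), adipocyte markers (4 of 7) and Schwann cell and neuronal markers (2 of 6). Epicardial and mesothelial markers were higher in 3 of 12.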
